A study of Mus musculus with 9 samples.

Results

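The tailbud mesoderm (TBM) of the mouse embryo was set against the mean of both tissues beside it, the chordoneural hinge (CNH) and the presomitic mesoderm (PSM), to find the genes that were highest or lowest in the middle tissue. Of the 9 arrays of the series, 3 carried TBM, 3 CNH and 3 PSM, numbered as replicates 1 to 3 in each region. All embryos were at embryonic day 10.5, and the sources name no treatment or mutation. Pieces of a region were pooled over many embryos before RNA extraction, and total RNA was hybridised to Illumina mouse Ref6v2 bead arrays. The methods name 2 mouse strains, CD1 and C57Bl/6J, and describe 2 biological replicates and 1 technical replicate per region, but assign neither a strain nor the technical replicate to a sample. Every p-value below treats the 3 arrays of a region as independent and so covers only the spread between these arrays.

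The tail grows from its tip. Progenitors in the CNH supply the TBM, whose unsegmented cells mature into PSM, and somites bud from the front of the PSM. WNT and FGF signals are strong at the tip and retinoic acid is made at the somite end, so many genes fall or rise along this line, and a gene that is highest or lowest in the TBM breaks that order. The pieces are bulk tissue, in which fewer cells of a type and less RNA per cell cannot be told apart.

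Each array detected 13621 to 14809 of the 45281 probes, taking a detection p under 0.01 against the negative controls. The arrays of replicate 3 had a median signal of at most 67.1, beside 76.8 to 80.4 on those of replicates 1 and 2. The replicate number was therefore a block in the fit, and directions are also given within each number. Levels are log2 signals after background correction and quantile normalization, and differences are log2 differences between region means with their standard errors (SE). A probe was called at a Benjamini-Hochberg adjusted p below 0.05 from limma and a difference of at least 1.5-fold (0.585 on the log2 scale).

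At most probes that differed between the flanking tissues the TBM mean lay between both, nearer the CNH. Of the 1393 probes called between CNH and PSM (11.2% of the 12437 tested), the TBM mean lay between both in 1032 (74.1%). On a line from CNH at 0 to PSM at 1, the TBM mean had a median position of 0.16 over these probes. The lower quartile was -3.25e-05 and the upper 0.364. This order of means does not test whether the TBM differs from the CNH. Over all tested probes, called or not, it lay between both in 5741 (46.2%), above both in 3456 (27.8%) and below both in 3240 (26.1%).

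Against the mean of its neighbours, the TBM was higher at 197 probes (1.58% of those tested) and lower at 202 (1.62%), or 399 either way (3.21%). Most of these calls were at probes also called between CNH and PSM. In 157 of the 197 the CNH also passed above the PSM, and in 163 of the 202 the PSM passed above the CNH. Of the 157, the TBM mean lay between both neighbours in 62 and above both in 95. Of the 163, it lay between both in 64 and below both in 99. Only 39 of the higher and 34 of the lower probes had no call between CNH and PSM. The TBM mean lay above both neighbours at 135 of the 197 and below both at 136 of the 202. The 5 named genes furthest above the mean were Defa31, Hopx, Cyp26a1, Defa3 and Fgf17, and none of these passed between TBM and CNH. Cyp26a1, which degrades retinoic acid, had log2 signals of 8.90, 8.89 and 8.53 in TBM, 8.72, 9.02 and 8.04 in CNH, and 4.45, 4.63 and 5.43 in PSM. Its values overlapped between TBM and CNH and stood apart from the PSM. The contrast with the mean therefore also takes genes that passed against the PSM alone. A gene was called highest or lowest in the TBM where it passed against each neighbour.

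By that rule 13 probes (0.105% of those tested), from 12 named genes and 1 probe without a gene symbol, were highest in the TBM, and 15 probes (0.121%), from 11 named genes and 1 probe without a symbol, were lowest. Since 1 array per region is technical, the arrays were also averaged in pairs. Averaging replicates 1 and 2 left 1 of these highest probes (Cck) and 6 of the lowest (Igfbp5 with 3, Sox9, Moxd1 and Synpo). Averaging 1 and 3 gave 14 highest probes, 10 of them among the 13, and 13 lowest, all 13 among the 15. Averaging 2 and 3 gave 15 highest, 12 among the 13, and 16 lowest, 13 among the 15. Arrays numbered 1 and 2 resembled each other, and number 3 stood apart in every region. The sources do not say whether 1 and 2 are the technical pair. If they are, the counts of 1 highest and 6 lowest apply, and the calls on all arrays count a technical pair as independent. The tests against the CNH and against the PSM share the TBM arrays. For comparison, 28 probes were higher in the TBM than in the CNH (0.225%) and 97 lower (0.78%), and 668 were higher than in the PSM (5.37%) and 504 lower (4.05%). All 13 highest probes lay above both neighbours in each of the 3 replicate numbers, as 698 of all tested probes did (5.61%), and all 15 lowest probes lay below both in each number, as 615 did (4.94%). The 3 TBM arrays stood above all 6 others at 7 of the 13 probes (76 of all tested, 0.611%), and below all 6 at 9 of the 15 (70 of all tested, 0.563%). The probes were chosen by their differences on these same arrays. These counts therefore follow in part from the choice and give no independent support. The smaller of the differences was 0.61 for Mical1, the last gene inside the highest group, and 0.57 for Egfr just outside it; it was -0.60 for a probe of Pde1b, the last inside the lowest group, and -0.40 for Tubb4a outside it. Without the replicate block no probe was highest and none lowest (0 of each by limma, 14 and 12 at an unadjusted p below 0.05).

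**Figure D1:**
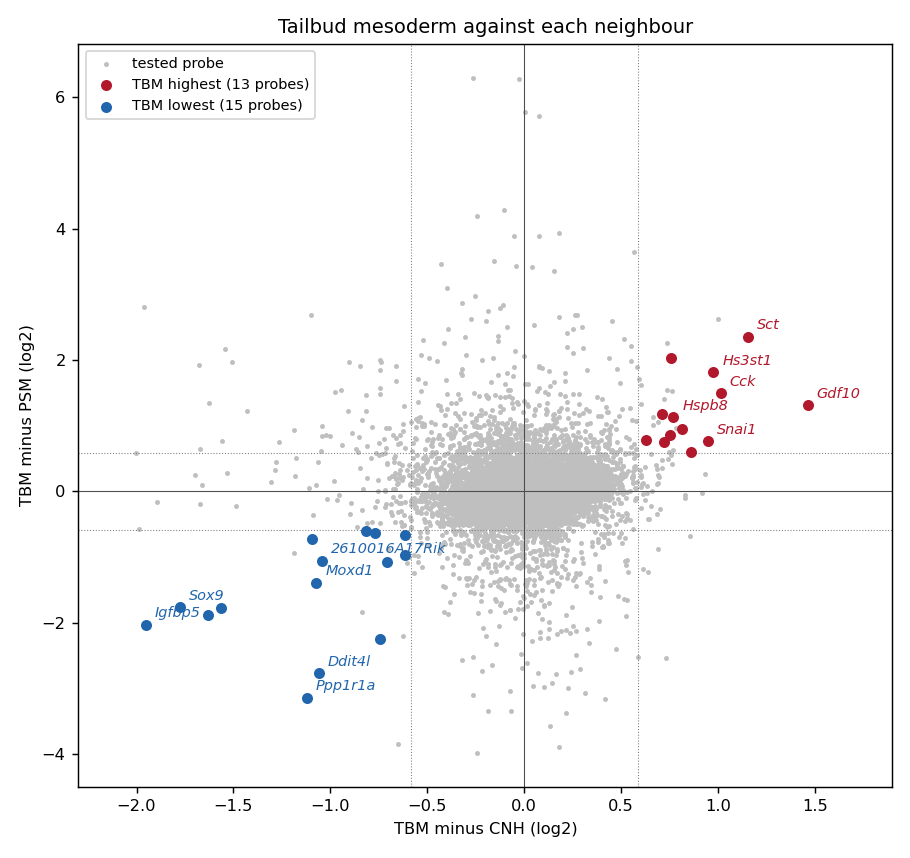
Each point is one of the 12437 tested probes, with its log2 difference between TBM and CNH across and between TBM and PSM upwards; dotted lines mark 1.5-fold. The 13 probes called highest (red, upper right) and the 15 called lowest (blue, lower left) lie off the vertical band around 0 that holds most probes with a large difference from the PSM, and the 3 probes of Igfbp5 and that of Sox9 lie furthest left among the lowest.

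The genes highest in the TBM are given by role, beginning with those for secreted proteins. Gdf10, a ligand of the TGF-beta family related to bone morphogenetic proteins, had log2 signals of 6.81, 7.12 and 6.73 on the TBM arrays, 5.42, 5.07 and 5.78 on the CNH arrays and 5.14, 5.43 and 6.16 on the PSM arrays. All 3 TBM arrays stood above the 6 others, while CNH and PSM overlapped. It exceeded the CNH by 1.46 (SE 0.22, adjusted p = 0.0147) and the PSM by 1.31 (SE 0.22, adjusted p = 0.00249), and had the largest smaller difference of the group.

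Sct encodes secretin, the gut hormone that stimulates bicarbonate secretion by the pancreas. Its signal was the most even of the group in the TBM, at 10.18, 10.19 and 10.18, against 8.82, 9.02 and 9.23 in the CNH and 7.62, 7.42 and 8.43 in the PSM. No array of one region overlapped another region's. The difference was 1.16 from the CNH (SE 0.18, adjusted p = 0.0168) and 2.36 from the PSM (SE 0.18, adjusted p = 1.68e-05), and the CNH also passed above the PSM, by 1.20. Cck, cholecystokinin, a peptide of gut and brain, measured 6.02, 6.14 and 6.68 in TBM, 4.87, 5.20 and 5.73 in CNH, and 4.80, 4.47 and 5.07 in PSM, where 1 of 3 arrays detected it. The TBM arrays again stood above all others, by 1.01 over the CNH (SE 0.14, adjusted p = 0.0107) and 1.5 over the PSM (SE 0.14, adjusted p = 5.6e-05). Of 30 genes on a list of secreted peptides and hormones, 28 matched a probe by symbol and 3 were tested. The other one, Nmb, was not called, at -0.36 against the mean.

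Dkk1, a secreted inhibitor of WNT signalling that binds the LRP co-receptors, was detected on all 3 TBM arrays and on none of the others. Its signals, 5.10, 5.19 and 5.33 in TBM, 4.48, 4.46 and 4.81 in CNH and 4.33, 4.45 and 4.48 in PSM, were dim, so only a lower bound of its change can be given. Against the lowest signal that counted as detected on each array, it was at least 1.26-fold higher than in the CNH (adjusted p = 0.0286) and at least 1.21-fold higher than in the PSM (adjusted p = 0.000689). Both bounds lie under the 1.5-fold of the call, and the p-values belong to the fitted differences of 0.63 and 0.79 from undetected signals. Its relative Dkk3 was not called against the mean, at 0.37. Spink2, an inhibitor of serine proteases, had signals of 6.37, 6.55 and 7.55 in TBM, 5.59, 5.59 and 7.0 in CNH, and 4.35, 4.70 and 5.29 in PSM. It was graded above the PSM and highest in the TBM, by 0.76 over the CNH (SE 0.15, adjusted p = 0.0441) and 2.04 over the PSM (SE 0.15, adjusted p = 1.16e-05), although TBM and CNH arrays overlapped unless compared within a replicate number. It was detected on 1 of 3 PSM arrays.

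Transcription factors were represented by Snai1 and Lhx5. Snai1, a zinc finger repressor of Cdh1 that acts when mesoderm cells leave an epithelium, had log2 signals of 8.06, 8.04 and 7.32 in TBM, 7.10, 7.02 and 6.46 in CNH, and 7.01, 7.31 and 6.81 in PSM. The TBM passed above the CNH by 0.95 (SE 0.13, adjusted p = 0.0107) and above the PSM by 0.76 (SE 0.13, adjusted p = 0.00229), and CNH and PSM were not called apart. Its paralogue Snai2 ran the other way, at 4.41, 4.78 and 4.92 in TBM, 5.19, 4.96 and 4.72 in CNH, and 6.30, 6.33 and 6.10 in PSM. Snai2 passed below the PSM, by -1.54 (adjusted p = 0.000162), and not below the CNH, at -0.26 (adjusted p = 0.589), and was detected on 1 of 3 TBM arrays. Twist2 was above the mean by 0.67 (adjusted p = 0.0035) without a call over the CNH, at 0.54 (adjusted p = 0.0549), and Twist1 was below the mean by -0.89 (adjusted p = 0.00886). Of 14 tested genes on a list for epithelial to mesenchymal transition these 4 were called against the mean, 2 each way, with a list median of -0.03. Cdh1 itself was not called against the mean, at -0.21. Lhx5, a LIM homeodomain factor known from the forebrain and the only Lhx gene tested, had signals of 5.63, 5.76 and 6.39 in TBM, 5.10, 4.91 and 5.63 in CNH, and 4.57, 4.51 and 5.14 in PSM. It exceeded the CNH by 0.71 (SE 0.11, adjusted p = 0.0163) and the PSM, where 1 array detected it, by 1.18 (SE 0.11, adjusted p = 5.6e-05).

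Promoter sequences are printed for 4 of the highest genes in these roles that hold a searched motif, beside that of Igfbp5, the leading lowest gene described further on. In the RefSeq promoter table used here (GRCm38.p6), entries were matched for 10 of the 12 highest and 6 of the 11 lowest genes. The 250 bases before the start site are shown 5′ to 3′, with motif matches in capitals. The positions are chr7:141279134-141279383 (minus strand), chr9:121495695-121495944 (minus strand), chr2:167537945-167538194 (plus strand), chr19:30549497-30549746 (minus strand) and chr1:72874866-72875115 (minus strand).
Sct: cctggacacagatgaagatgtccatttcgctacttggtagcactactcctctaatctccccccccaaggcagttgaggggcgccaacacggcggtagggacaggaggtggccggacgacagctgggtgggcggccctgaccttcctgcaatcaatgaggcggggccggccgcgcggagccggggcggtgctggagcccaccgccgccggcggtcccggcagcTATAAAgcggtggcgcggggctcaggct
Cck: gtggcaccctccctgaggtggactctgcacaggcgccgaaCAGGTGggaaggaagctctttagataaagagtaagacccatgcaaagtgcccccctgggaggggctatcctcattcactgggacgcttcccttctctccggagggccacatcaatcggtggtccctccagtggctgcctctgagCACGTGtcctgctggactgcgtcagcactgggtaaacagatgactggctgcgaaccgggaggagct
Snai1: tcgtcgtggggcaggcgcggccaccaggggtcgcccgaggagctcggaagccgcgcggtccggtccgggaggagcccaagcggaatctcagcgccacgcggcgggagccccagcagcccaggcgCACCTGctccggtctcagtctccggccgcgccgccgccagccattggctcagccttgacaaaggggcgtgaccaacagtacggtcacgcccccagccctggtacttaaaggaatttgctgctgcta
Dkk1: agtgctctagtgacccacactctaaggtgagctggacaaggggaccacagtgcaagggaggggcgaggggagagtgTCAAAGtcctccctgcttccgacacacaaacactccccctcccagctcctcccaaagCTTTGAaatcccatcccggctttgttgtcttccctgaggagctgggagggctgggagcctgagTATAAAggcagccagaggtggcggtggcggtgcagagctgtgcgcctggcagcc
Igfbp5: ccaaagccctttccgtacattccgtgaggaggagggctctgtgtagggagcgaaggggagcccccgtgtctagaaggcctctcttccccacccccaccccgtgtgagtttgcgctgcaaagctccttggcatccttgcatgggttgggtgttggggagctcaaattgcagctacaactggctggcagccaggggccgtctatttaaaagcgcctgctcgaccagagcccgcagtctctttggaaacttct
Searched on both strands were the Snail E-box CAGGTG, the TCF/LEF core CTTTGA, the cAMP response half-site TGACGT, the palindromic E-box CACGTG and the TATA box TATAAA. Over 32851 promoter stretches of the same length, these occurred in 17.2%, 13.8%, 6.47%, 6.02% and 12.4%. In Sct the capitals mark a TATA box beginning 28 bases before the start. Snai1 carries its own factor's E-box on the antisense strand, and Dkk1 holds the TCF/LEF core once on each strand, beginning 174 and 117 bases before its start, and a TATA box 54 bases before it. Cck has both E-boxes, and Igfbp5 none of the 5 motifs. The Snail E-box occurred in 3 of the 10 highest genes with a promoter (Cck, Snai1 and Spink2) and in 3 of the 6 lowest (Moxd1, Ddit4l and Pde1b). These counts are per gene, over any of its stretches, of which Spink2 and Pde1b have 3 each. The percentages above are per stretch, so the shares are not in the same unit. A match describes letters in a window and does not show a bound site.

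The remaining highest genes encode enzymes and a chaperone. Hs3st1, which adds sulfate to heparan sulfate chains, had signals of 7.41, 7.55 and 6.08 in TBM, 6.67, 6.64 and 4.80 in CNH, and 5.50, 5.58 and 4.50 in PSM. In numbers 1 and 2 the order ran from TBM through CNH to PSM. In number 3 it was detected in the TBM but in neither neighbour, and the fitted differences of 0.98 (SE 0.16, adjusted p = 0.0209) and 1.82 (SE 0.16, adjusted p = 4.06e-05) include those undetected signals. Of its relatives, Hs3st3a1 was lower than the mean, by -0.76 (adjusted p = 0.0105). Hs3st3b1 was not called against the mean, at -0.36, but passed below the PSM, at -1.01 (adjusted p = 0.000664). Carbonic anhydrases, which interconvert carbon dioxide and bicarbonate, gave 2 calls, since 2 of 7 tested Car genes were highest in the TBM. Cytosolic Car3 measured 8.65, 8.53 and 5.01 in TBM, 7.77, 7.73 and 4.43 in CNH, and 7.68, 7.59 and 4.34 in PSM. Replicate 3 was far below the others in every region, and in that number the probe was detected in the TBM but in neither neighbour. The TBM was above both within each number, with fitted differences of 0.75 over the CNH (SE 0.11, adjusted p = 0.0131) and 0.86 over the PSM (SE 0.11, adjusted p = 0.000472) that include those undetected signals. Membrane-bound Car4 was 6.86, 6.87 and 6.20 in TBM, 6.03, 6.25 and 5.48 in CNH, and 6.04, 6.23 and 5.40 in PSM. Its differences, 0.72 and 0.76 (SE 0.10 each, adjusted p = 0.0131 and 0.000742), were nearly equal on both sides. The other 5 Car genes tested were not called against the mean, from -0.06 for Car12 to 0.58 for Car14.

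Hspb8, a small heat shock protein, had signals of 9.26, 9.29 and 9.44 in TBM, 8.62, 8.55 and 8.52 in CNH, and 7.93, 8.16 and 8.51 in PSM. It passed by 0.77 over the CNH (SE 0.13, adjusted p = 0.0286) and 1.13 over the PSM (SE 0.13, adjusted p = 0.00026). A second, dimmer probe of Hspb8 missed the call against the CNH, at 0.69 (adjusted p = 0.0655). It was the only one of 10 tested heat shock and chaperone genes called against the mean. Mical1, an oxidase that disassembles actin filaments, rests on 1 of 3 probes, with differences of 0.86 and 0.61 (adjusted p = 0.0145 and 0.00973). Its 2 other probes passed above the CNH, at 0.71 and 0.69, and not above the PSM, at 0.35 (adjusted p = 0.128) and 0.24 (adjusted p = 0.249). The probe without a symbol, ILMN_1222219, was above the CNH by 0.81 and above the PSM by 0.94.

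**Figure D2:**
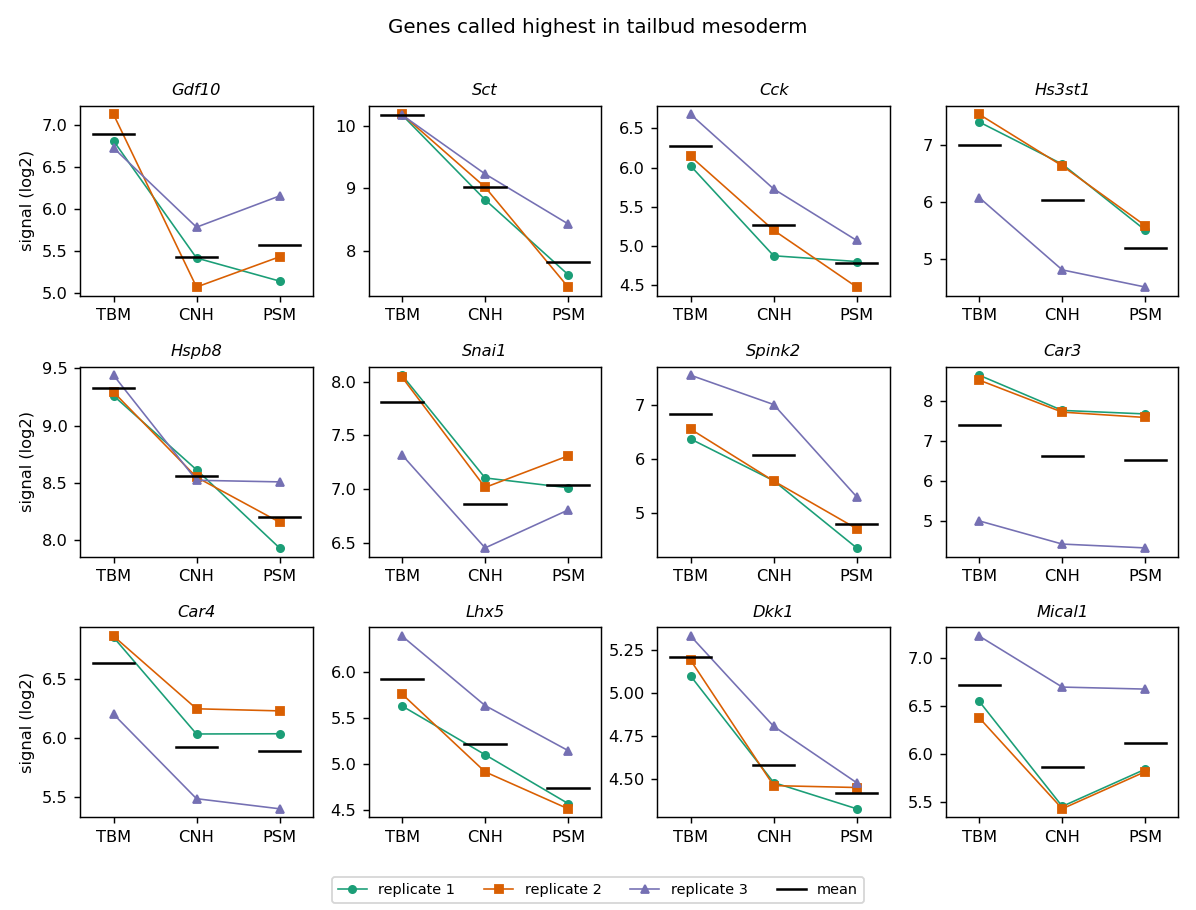
Log2 signal of the 12 named genes highest in the TBM, in TBM, CNH and PSM from left to right; each line joins the arrays of one replicate number, black bars are means of 3 arrays, and each panel has its own axis. Every line falls from TBM to CNH and stays below its TBM value in PSM, while replicate 3 lies far below the others in Car3 (5.01 in TBM, against 8.65 and 8.53).

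Each of these calls rested on single arrays. Leaving out CNH replicate 1, TBM replicate 1 or TBM replicate 2 left 0 highest probes (35, 26 and 26 at an unadjusted p below 0.05). Without CNH replicate 2 the count was 2 and without CNH replicate 3 it was 7. Without TBM replicate 3 it was 7 (5 of the 13), and without PSM replicate 3 it was 25 (12 of the 13). No difference of the 13 probes moved by over 1.5 times when 1 array was left out, and every one kept its direction. Of the 13, 3 (Dkk1, Hs3st1 and Car3) had passed the detection filter only through the TBM, as 316 of all tested probes had, so their count gives no support to a difference. Detected on all 9 arrays were 7 of the 13.

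The lowest genes were led by Igfbp5 and Sox9, which lay further below both neighbours than any other named gene by the smaller of the differences. Igfbp5, a secreted protein that binds insulin-like growth factors and adheres to matrix, was called with all 3 of its tested probes. The brightest had log2 signals of 7.93, 8.17 and 8.14 in TBM, 9.70, 9.82 and 10.57 in CNH, and 10.08, 9.84 and 10.40 in PSM. TBM arrays stood below the 6 others, and CNH and PSM did not differ by a call, at -0.08. The CNH was 3.87 times and the PSM 4.08 times the TBM level, as log2 differences of -1.95 (SE 0.16, adjusted p = 0.000501) and -2.03 (SE 0.16, adjusted p = 2.09e-05). The 2 dimmer probes gave -1.63 and -1.57 against the CNH, and -1.88 and -1.78 against the PSM. None of the other 4 tested Igfbp genes was called against the mean, where Igfbp4 was at -0.55, Igfbp2 at -0.27, Igfbp3 at 0.29 and Igfbp7 at 0.58. Against the PSM alone, Igfbp7 passed above (1.71, adjusted p = 2.16e-05) and Igfbp4 below (-0.83, adjusted p = 0.000396). Among 12 tested genes of the insulin-like growth factor system Igfbp5 was the only one called against the mean, with a list median of 0.07.

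Sox9, a transcription factor of notochord, sclerotome and cartilage, had signals of 7.25, 7.35 and 9.92 in TBM, 9.34, 9.26 and 11.24 in CNH, and 9.24, 9.37 and 11.18 in PSM. Replicate 3 was brighter in every region, so the arrays overlapped over all 9, but within each number the TBM was lower than both neighbours. The fitted differences were -1.78 (SE 0.16, adjusted p = 0.000899) and -1.76 (SE 0.16, adjusted p = 5.68e-05), and CNH and PSM were 0.02 apart. Its other probe, detected on 1 TBM, 3 CNH and 1 PSM array, had the same direction and was not called, at -0.45 (adjusted p = 0.208) and -0.47 (adjusted p = 0.055). Of 9 Sox genes tested Sox9 was the only one called against the mean. Sox2 (-1.53, adjusted p = 0.0123) and Sox5 (-0.84, adjusted p = 0.0469) passed below the CNH, and neither was called against the PSM, at 0.28 and -0.28.

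Other markers of the notochord and floor plate had lower summed signals in the TBM than in the CNH, but not lower than in the PSM. Sox9 and Igfbp5 stand on that list themselves, so values are given with and without both. Of 20 listed genes, 19 matched a probe by symbol and 10 were tested. Of these, 3 were lower than the mean (Igfbp5, Sox9 and the BMP antagonist Chrd) and 2 higher (Slit2 and Krt19). The gene T (Brachyury), which the paper names among its most CNH-enriched genes, matched no probe by that symbol. Since the paper reports T from these arrays, this miss does not show that they lack a probe for it. T is therefore missing from this list and from that of tailbud genes as matched here. The list median was -0.52, beside -0.003 over all 7820 named genes, of which 1.98% were lower and 1.85% higher. Summed over the 10 genes, linear signals ranged from 1285 to 2458 in TBM, 2796 to 5462 in CNH, and 2196 to 4639 in PSM. Without Igfbp5 and Sox9 the sums were 884 to 1208 in TBM, 1314 to 1523 in CNH, and 569 to 968 in PSM. Over these 8 genes the TBM sums lay below the CNH and overlapped the PSM. Their medians were -0.39 against the mean, -0.35 against the CNH and 0.04 against the PSM, with 2 calls higher than the mean and 1 lower. Shh is the signal that notochord and floor plate release. It was 5.32, 5.55 and 4.41 in TBM, 7.63, 7.80 and 5.85 in CNH, and 4.69, 4.49 and 4.36 in PSM, where no array detected it. Shh passed below the CNH in the TBM (-2.0, adjusted p = 0.0107), while its difference from the PSM did not pass (0.58, adjusted p = 0.218). Chrd was likewise lower than the CNH, by -1.70 (adjusted p = 0.000706), and not called against the PSM, at 0.25. Noto was detected on 2 CNH arrays and on 0 in TBM and PSM, and Foxa2 was detected on no array. The paper's supplement also gives notochord genes from an earlier study. Those include the lowest genes Igfbp5, Sox9, Moxd1, Nrep and Synpo, and Smoc1, Cthrc1 and Fermt1, described below. They also include Slit2, which was higher than the mean. The list used here does not hold Moxd1, Nrep, Synpo, Smoc1, Cthrc1 or Fermt1. The part of notochord tissue in these low genes was not tested.

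**Figure D3:**
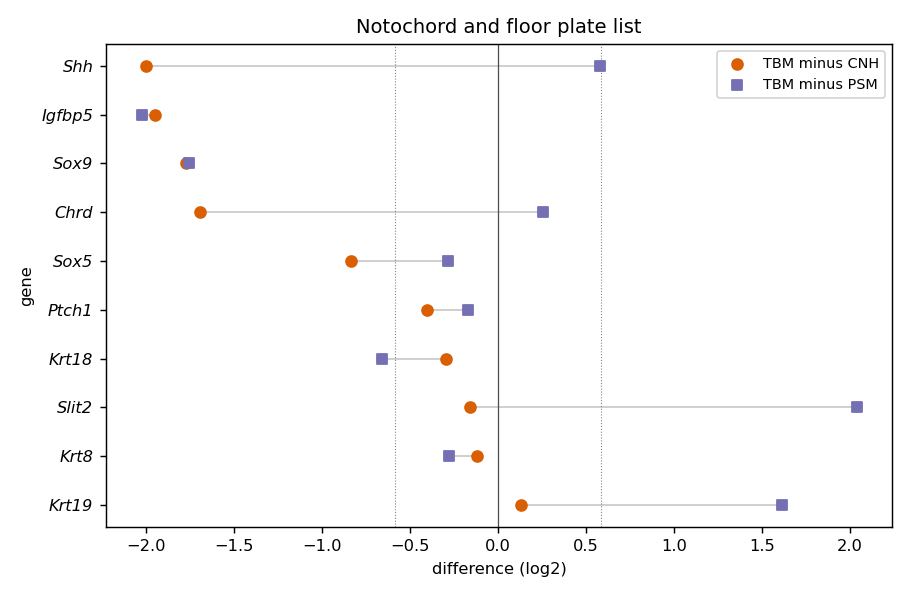
Log2 differences of the 10 tested notochord and floor plate genes, TBM minus CNH (orange circles) and TBM minus PSM (purple squares); dotted lines mark 1.5-fold. For Igfbp5 and Sox9 both points lie together near -1.95 and -1.78, while Shh and Chrd are lower than the CNH but not called against the PSM.

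Ppp1r1a, an inhibitor of protein phosphatase 1 switched on by protein kinase A, had signals of 7.21, 7.08 and 7.46 in TBM, 8.31, 8.35 and 8.45 in CNH, and 10.42, 10.65 and 10.10 in PSM. The 3 regions did not overlap, with differences of -1.12 from the CNH (SE 0.16, adjusted p = 0.0127) and -3.14 from the PSM (SE 0.16, adjusted p = 1.26e-06). Ddit4l, an inhibitor of the mTOR pathway, had 5.03, 5.32 and 5.94 in TBM, 6.29, 6.33 and 6.84 in CNH, and 8.16, 8.29 and 8.13 in PSM. It had the same order and no overlap, at -1.06 (SE 0.17, adjusted p = 0.0198) and -2.76 (SE 0.17, adjusted p = 4.28e-06), and its relative Ddit4 was lower than the mean by -0.59 (adjusted p = 0.00596). Both genes were far higher in the PSM than in either other region, and the CNH was intermediate.

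Pde1b, which hydrolyses cyclic nucleotides under calcium control, was called with both of its tested probes. Its brighter probe measured 5.31, 5.19 and 6.23 in TBM, 5.92, 5.95 and 7.17 in CNH, and 5.98, 6.0 and 6.64 in PSM, and differed by -0.77 (adjusted p = 0.0289) and -0.63 (adjusted p = 0.00966). The other gave -0.81 and -0.60. Its relative Pde1c was not called, at 0.20 against the mean. Dyrk3, a protein kinase, was lower by -0.61 (adjusted p = 0.0385) and -0.97 (adjusted p = 0.000256), and all 3 of its TBM arrays, at 5.80, 5.81 and 5.51, lay below the 6 others, which ran from 5.99 to 6.95.

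The others act in the cytoskeleton and membrane, in metabolism, or have no role stated here. Among them, Moxd1, Nrep and Synpo are also notochord genes in the paper's supplement. Moxd1, a copper monooxygenase related to dopamine beta-hydroxylase, had signals of 5.31, 5.36 and 4.82 in TBM, 6.16, 6.32 and 6.22 in CNH, and 6.34, 6.65 and 6.66 in PSM. The TBM arrays, of which 2 detected it, lay below all others, by -1.07 (SE 0.15, adjusted p = 0.0115) and -1.39 (SE 0.15, adjusted p = 0.000148). Nrep, a small protein known from regenerating neurons, was bright, at 11.42, 11.26 and 12.19 in TBM, 12.11, 12.06 and 12.82 in CNH, and 12.52, 12.50 and 13.09 in PSM. It differed by -0.71 (SE 0.11, adjusted p = 0.0163) and -1.08 (SE 0.11, adjusted p = 0.000101), in the same order within every number. The actin-associated gene Synpo was at -1.10 (adjusted p = 0.0127) and -0.72 (adjusted p = 0.011), detected on 2 TBM arrays. The membrane adaptor Ank3 was at -0.61 (adjusted p = 0.048) and -0.67 (adjusted p = 0.00386), the weakest p of the lowest genes against the CNH, and Ank1 and Ank2 were not called, at 0.17 and -0.04 against the mean. The transcript 2610016A17Rik, at 6.46, 6.12 and 6.66 in TBM, 7.37, 7.59 and 7.39 in CNH, and 7.68, 7.66 and 7.06 in PSM, was lower by -1.04 (adjusted p = 0.0385) and -1.05 (adjusted p = 0.00412). The probe without a symbol, ILMN_2419858, was lower by -0.74 and -2.25.

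**Figure D4:**
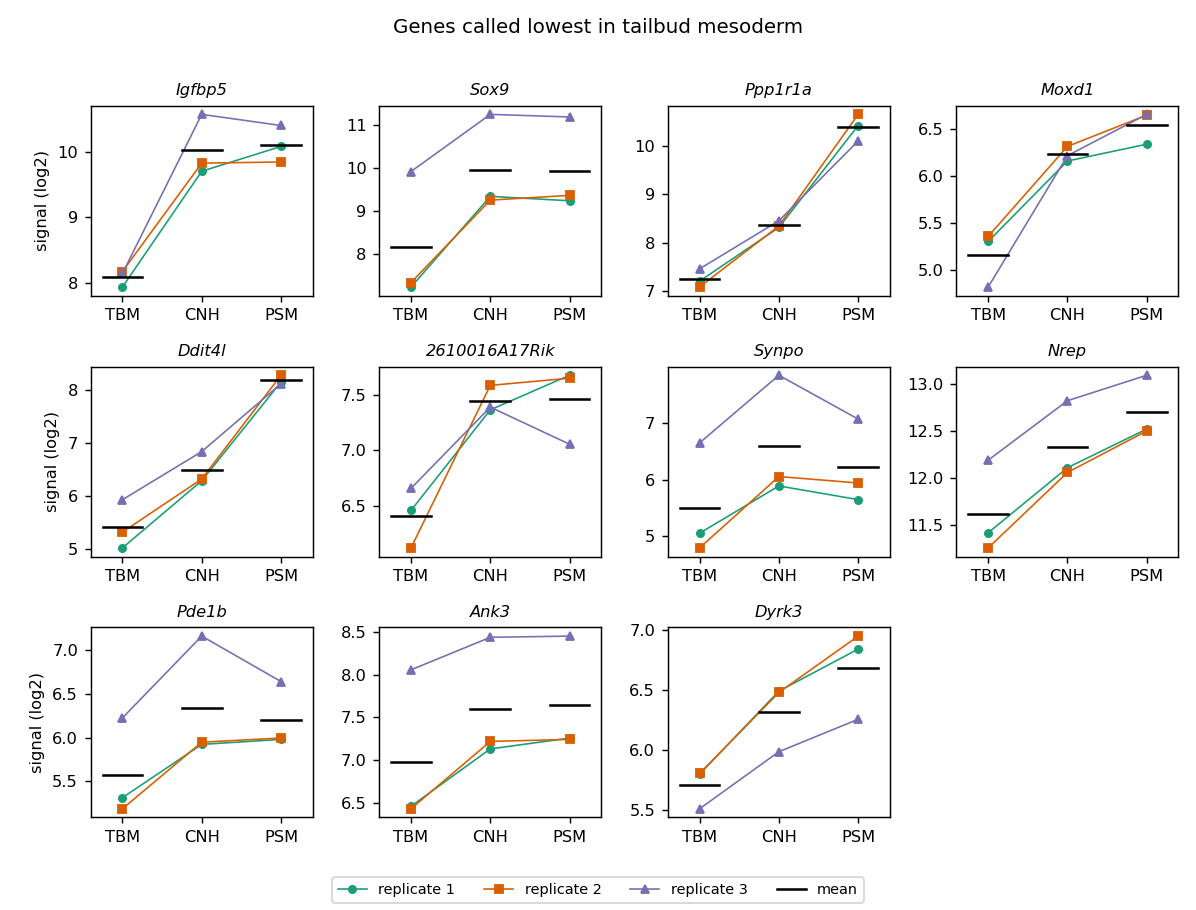
Log2 signal of the 11 named genes lowest in the TBM, drawn as for the highest genes, with the brightest called probe of each. All lines rise from TBM to CNH; in Igfbp5, Sox9 and 2610016A17Rik the PSM is near the CNH, whereas in Ppp1r1a and Ddit4l it is far above it (mean differences of -3.14 and -2.76 between TBM and PSM).

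The calls of Igfbp5 and Sox9 remained when any single array was left out. The other lowest calls did not: all of them ended without CNH replicate 1, 2 or 3 or TBM replicate 2, each of which left 4 probes, all 3 of Igfbp5 and that of Sox9. Without TBM replicate 1 the count was 5, without TBM replicate 3 it was 8 and without PSM replicate 2 it was 9. No difference of the 15 probes moved by over 1.5 times or changed direction. All 15 passed the detection filter through CNH or PSM, and 11 were detected on all 9 arrays.

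Of the 10 genes nearest to the highest call that passed against the mean with the TBM above both neighbours, the homeobox gene Msx1, induced by BMP signals, came first. Msx1 had signals of 8.43, 8.39 and 5.87 in TBM, 7.07, 7.32 and 5.29 in CNH, and 4.99, 5.36 and 4.45 in PSM. It was above the mean by 1.82 (adjusted p = 0.00327) and above the PSM by 2.63, but not called above the CNH, at 1.00 (adjusted p = 0.186), though higher in all 3 numbers. Id1, an inhibitor of basic helix-loop-helix factors and also a BMP target, was above the mean by 1.14 (adjusted p = 0.000819) and above the CNH by 0.74, which missed the call (adjusted p = 0.0525). Of 11 tested genes on the BMP list, Msx1, Gdf10 and Id1 were higher than the mean and Chrd and Id2 lower, with a list median of 0.03. The ligand Bmp4 was not called, at -0.04, and Bmp7, at -0.53 (adjusted p = 0.0128), did not reach 1.5-fold. The other 8 on the high side were Tg, Chst7, Caln1, Smc6, Sgip1, Tgfbi, Erfe and Cited1, above the CNH by 0.59 to 0.78, none with a call there.

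On the low side, the 10 nearest genes were Msc, Smoc1, Fhdc1, Cthrc1, Parm1, Gper1, Rgs16, Vtn, Tle1 and Nme5. Cthrc1, a secreted protein with a collagen repeat, was detected on no TBM array and was the only one called against the CNH, which exceeded the TBM at least 2.85-fold (adjusted p = 0.0127). Its difference from the PSM did not pass (adjusted p = 0.246). Smoc1, a matrix protein that antagonises BMP signals, had signals of 7.96, 7.82 and 9.38 in TBM, 8.53, 8.77 and 9.75 in CNH, and 10.26, 10.41 and 11.10 in PSM. Its difference was -2.20 from the PSM (adjusted p = 1.05e-05) and -0.63 from the CNH, which did not pass (adjusted p = 0.11).

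Defining markers placed the TBM pieces with the tailbud. Tbx6, a factor of tailbud and presomitic mesoderm, had its highest arrays in the TBM, at 10.17, 10.12 and 9.89, against 9.81, 9.58 and 9.54 in the CNH and 9.50, 9.58 and 9.49 in the PSM, yet at 0.48 over the mean (adjusted p = 0.0186) it stayed under 1.5-fold. Over all named genes, 1.85% were higher than the mean and 1.98% lower. Of 18 tested tailbud genes 11 were higher than the mean and none lower (median 0.83), but their median was 0.04 against the CNH and 2.07 against the PSM, and none was called highest in the TBM. Only Fgf8 of these was called against the CNH, below it by -1.1 (adjusted p = 0.00709), and it passed above the PSM by 2.68 (adjusted p = 1.23e-06). Of 10 tested genes of anterior PSM and somites, 8 were lower than the mean (median -1.38), at medians of 0.13 against the CNH and -3.12 against the PSM. Of 10 tested surface ectoderm genes 6 were lower than the mean, with Krt14 at -1.21 and Trp63 at -0.97. Of these, 5 passed below the PSM, while Fermt1 was not called against either neighbour, at -0.81 against the CNH (adjusted p = 0.0525) and -0.49 against the PSM. Their summed signals over the list were 712 to 803 in TBM, 669 to 860 in CNH and 1659 to 2385 in PSM.

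Lists of other tissues that the pieces could hold mostly gave few calls against the mean, as all named genes did (1.85% higher and 1.98% lower). At those shares a short list would often hold no call, so a lack of calls tells little. Of 16 tested endothelial genes 1 was higher than the mean (Lmo2, 0.67), and of 9 erythroid, 3 macrophage, 3 neural tube and 3 neural crest genes none was called against the mean. The neural tube genes Sox2 (-1.53, adjusted p = 0.0123) and Lmx1a (-1.18, adjusted p = 0.0107) nevertheless passed below the CNH, as did the gut endoderm gene Tmprss2 (-1.51, adjusted p = 0.00205), which also passed above the PSM. Of 7 tested gut endoderm genes Krt19 was higher than the mean and Cldn6 lower, and of 4 tested genes of ventral and lateral mesoderm Msx1 and Tbx3 were higher. Of 4 tested germ cell genes Alpl was higher, by 0.82. The calls in these lists lie above the shares of all named genes, but rest on few genes. Summed erythroid signals overlapped between TBM (93900 to 98960) and CNH (95480 to 107200) and were 76400 to 91450 in PSM. None of 21 tested cell cycle genes and none of 17 hypoxia and glycolysis genes was called against the mean, with medians of 0.09 and 0.22. Single neighbours did give calls in both lists. Cdkn1a passed below the CNH (-1.68, adjusted p = 0.000348) and above the PSM (1.93, adjusted p = 3.53e-06), and Eno3 above the PSM (1.0, adjusted p = 0.00017).

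**Figure D5:**
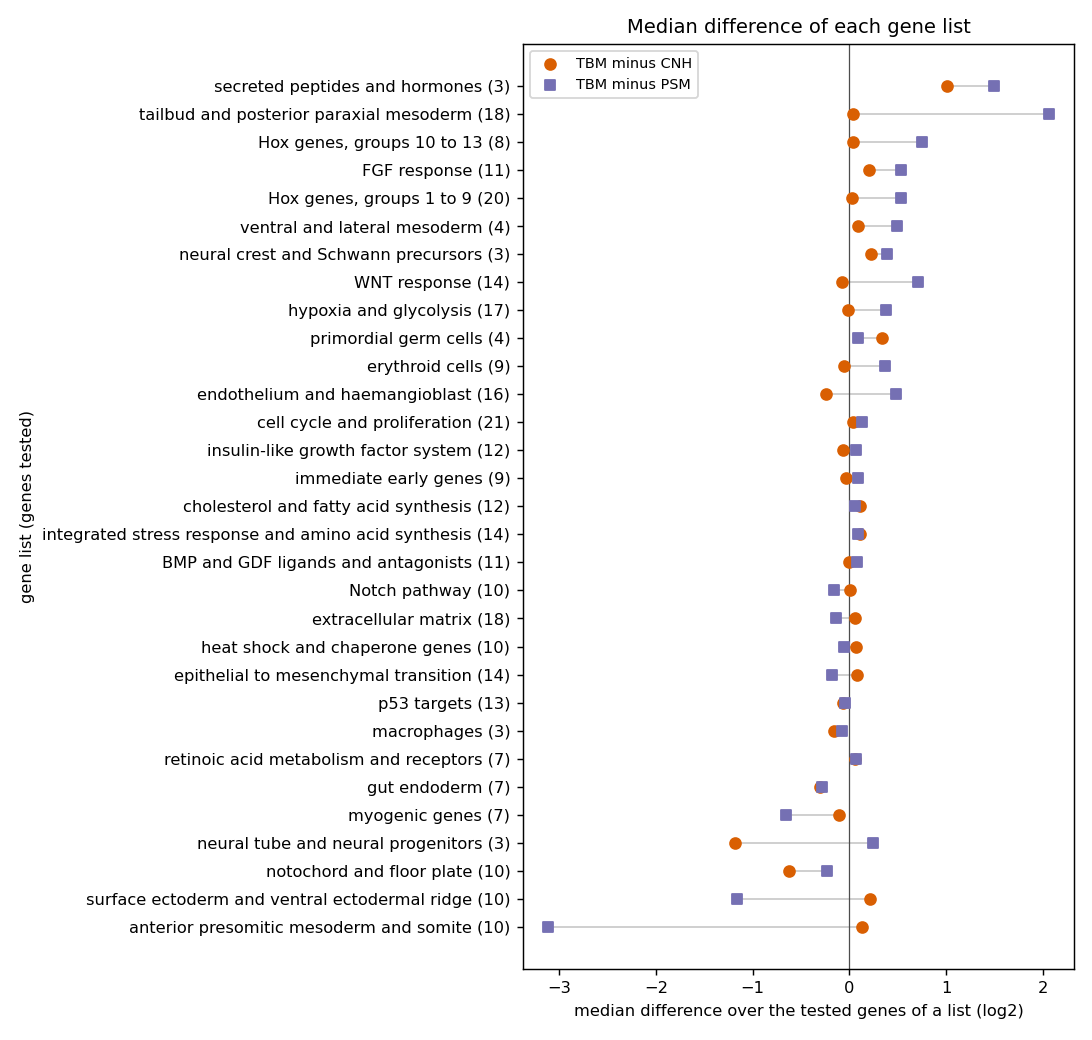
Median log2 difference over the tested genes of each list, TBM minus CNH (orange circles) and TBM minus PSM (purple squares), ordered by the median against the mean of both, with the number of tested genes in brackets. Of the 31 lists, 22 have medians within 1.5-fold of both neighbours and 8 pass that size against 1 neighbour. Secreted peptides, a list of 3 genes of which 2 were called highest, pass it against both (1.01 and 1.5). Those medians are the differences of Cck, itself called highest, so they add nothing to the call of that gene.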

How the data were processed

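RNA of TBM, CNH and PSM was measured on 9 arrays, 3 per region. The authors deposited, for each of 45281 probes, a signal intensity on a linear scale without normalization or background subtraction, and beside it a deposited detection p-value. A second deposited table holds log2-like values that the authors made by variance stabilizing transformation and robust spline normalization with lumi (array medians 7.24 to 7.25); its centring is not stated, and it served only as an alternative. Their own tests used limma with batch terms.

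Here neqc in limma 3.58.1 (R 4.3.3) estimated background from the detection p-values, added an offset of 16, equalised quantiles and took log2. A probe entered the tests when some region had a detection p below 0.01 on each of its 3 arrays (12437, of which 10857 carry a symbol). The largest such p inside the filter was 0.00991 and the smallest outside 0.0107. Of all probes 34885 map to 1 symbol, 18 to several and 10378 to none. A model with region means and a block for replicate number (4 residual degrees of freedom) gave TBM minus the mean of CNH and PSM (weights 1, -0.5 and -0.5), TBM minus CNH and TBM minus PSM. The block was checked by correlating deviations from region means between arrays of different regions: same-numbered arrays had r of 0.858 to 0.964. Arrays numbered 1 and 2 correlated at 0.863 to 0.893, so the check shows number 3 standing apart in every region and does not tell 1 from 2; the negative r of number 3 with the rest (-0.93 to -0.895) follows from centring. The numbers come from the sample titles.

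The brightest tested probe stands for a gene in lists. Named genes are those called highest or lowest, the 10 nearest misses and the 5 largest differences each way, up to 4 members per list, and region markers; not all are named. The 31 gene lists, the members and the rule were chosen with earlier results of these data known. A lower bound sets each dim array at the higher of the probe's value and the lowest detected value there, and the number of arrays limits all precision. On simulated data (12437 probes, some changed in TBM alone), 19 of 67 probes changed 1.5-fold, 67 of 67 changed 2-fold and 66 of 66 changed 4-fold were called against both neighbours. The simulated noise was independent between arrays, with no technical replicate and no difference between CNH and PSM. These shares therefore do not carry over to the real arrays, where Msx1, at 1.00 over the CNH, was not called against it. Alternatives were the block, the deposited values, background correction, offset, filter, array weights, left-out arrays and averaged replicates. Promoters came from RefSeq.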

Additional observations from a re-analysis of the deposited data

How the results depend on the processing

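Calls against both neighbours were few and moved with the processing, whereas directions did not: in every one of 20 alternatives in which a probe was tested, each of the 28 probes kept its direction against both neighbours. Without the block, with no filter and with probes detected on all 9 arrays, the fitted differences are the same as in the main fit. The other alternatives reuse the arrays from which the probes were chosen. The kept directions are therefore no independent support. For TBM against the mean of CNH and PSM, 399 probes were called. The count was 23 without the replicate block (9 higher and 14 lower, 39.1% higher against 49.4%), 58 from the deposited table (34 higher and 24 lower), 173 when background was not corrected, 222 at an offset of 50, 212 with no filter and 245 with probes detected on all 9 arrays. Leaving out single arrays gave 213 (without TBM replicate 2) to 477 (without PSM replicate 3), with 259 without TBM replicate 1. For probes highest in the TBM, 13 in all, these settings gave 0 without the block and 2 from the deposited table. They gave 5 (4 of the 13) when background was not corrected and 1 with no filter. Which array is technical is not given. Replicates 1 and 2 averaged gave 1, replicates 1 and 3 averaged 14 (10 of the 13) and 2 and 3 averaged 15 (12 of the 13). Replicates 1 and 2 alone gave 19, of which 9 were among the 13, and array weights 30, all 13 among them. Leaving out single arrays gave 0 to 25. For probes lowest in the TBM, 15 in all, the block removed gave 0, the deposited table gave 4, uncorrected background 7, an offset of 50 gave 9, no filter 3 and replicates 1 and 2 averaged 6 (13 and 16 for the other pairs), and leaving out single arrays 4 to 18. Both brighter Igfbp5 probes and Sox9 were called in 19 of 20 alternatives, all but the fit without the block, and the third Igfbp5 probe in 17; the other lowest probes were called in 3 to 11 and the highest in 6 (Dkk1, Lhx5 and Spink2) to 12 (Sct). Among values of named genes against the mean under an alternative, 2678 kept their side of the threshold, 382 were no longer called, 35 became called and 0 changed sign with a call. The cause of these changes was not tested.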
